A study of Andrias davidianus with 4 samples.

Results

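The 200 most abundant unigenes of Chinese giant salamander skin are described, out of 110708 unigenes measured. A unigene is an assembled transcript sequence, and a single gene may be represented by several of them. The 200 were chosen by their mean CPM, which is the share of a unigene in the unique counts of its library scaled to a total of 1000000, averaged over all 4 libraries. Skin of albino Andrias davidianus (2 libraries) was compared with wild type skin (2 libraries), from total RNA freed of ribosomal RNA and made into strand-specific libraries. The labels give the type of the animals as albino or wild type, name skin as the tissue and give no age, sex, allele or treatment. They do not say whether the 2 libraries of a group came from separate animals, so that p-values measure only the spread between these libraries, which may be technical. The libraries held 17361979 and 17547197 unique counts in albino, against 16854176 and 17256053 in wild type.

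Amphibian skin is a stratified epidermis over a collagen-rich dermis that holds mucous and granular glands, and its colour comes from pigment cells, of which melanophores make melanin. Albino animals lack normal melanin. In vertebrate skin, transcripts of structural proteins such as keratins and collagens, of ribosomal proteins and of mitochondria commonly take up a large part of the reads. The files pair no unigene with a gene name or a sequence, so none of the 200 is assigned here to such a family. For the same reason the tissue could not be checked against marker genes, and identifiers stand alone.

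These 200 unigenes, a minute part of the catalogue, took about as many unique counts as all the others together. Shares of reads given below are shares of these unique counts. They held 52.7% of the unique counts in albino replicate 1 and 46.8% in albino replicate 2, against 51.4% and 50.9% in wild type replicates 1 and 2. The 95% Wilson interval of each share was under 0.05 percentage points wide and covers counting error only. The albino libraries averaged 49.7% ± 4.17 and the wild type libraries 51.1% ± 0.341 (SD, n = 2 each), and the 2 groups overlapped. The difference of -1.42 percentage points was smaller than the spread of the albino libraries (p = 1 by an exact two-sided permutation test, n = 2 per group, for which 0.333 is the smallest p possible). Without albino replicate 2 the difference was 1.53 points, and without albino replicate 1 it was -4.37 points.

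Albino replicate 2 stood apart in how its reads were concentrated. The 10 most abundant unigenes held 18.8% and 14.8% of the reads in the albino libraries, against 19.2% and 19.1% in wild type. In the albino libraries the 50 most abundant held 36.6% and 30.9%, against 37.0% and 36.9% in wild type. The gap of albino replicate 2 to the other libraries was thus already present in these 50. In the next steps the albino libraries were alike. Ranks 51 to 100 held 7.41% and 7.31% in albino, against 6.80% and 6.56% in wild type, and ranks 151 to 200 held 3.53% and 3.63%, against 3.25% and 3.16%. The 200 unigenes that follow, at ranks 201 to 400, added 7.60% and 8.23% in albino, against 8.08% and 7.80% in wild type. When each library was ranked by itself, 50% of its reads lay in 156 and 248 unigenes in albino, against 170 and 177 in wild type.

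**Figure D1:**
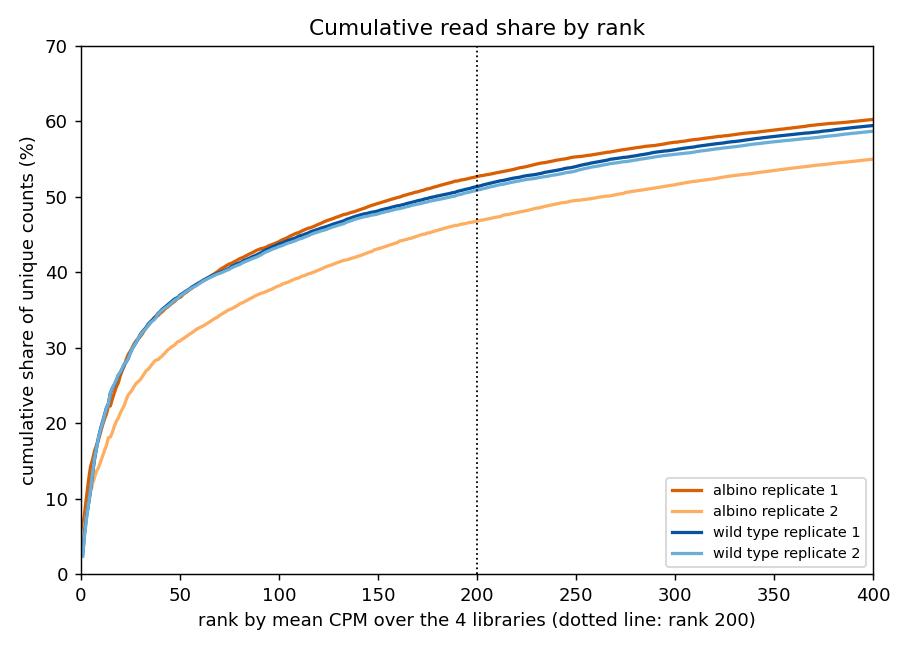
Cumulative share of unique counts (vertical axis, %) against rank by mean CPM over the 4 libraries (horizontal axis), with 1 line per library and a dotted line at rank 200. Albino replicate 2 reaches 46.8% at rank 200, and the other 3 libraries reach 50.9% to 52.7%.

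Of the 5 unigenes highest in mean CPM, 1 differed between the groups by the test. UniGene_190414, 3212 bases long, had 59064 and 46843 CPM in albino, against 24852 and 23827 CPM in wild type. It took 5.91% and 4.68% of the unique counts in albino and 2.49% and 2.38% in wild type. It rose in albino by 1.09 on the log2 scale (SE 0.28, edgeR adjusted p = 0.0253), with both albino libraries above both wild type libraries. This call was lost without wild type replicate 1 (adjusted p = 0.252) and without wild type replicate 2 (adjusted p = 0.274).

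UniGene_174259, 1601 bases long, had 22292 and 17572 CPM in albino, against 30152.5 and 28438 CPM in wild type, where it ranked first. UniGene_127178, 1685 bases long, had 23315 and 16335 CPM in albino, against 22489 and 21844 CPM in wild type. UniGene_7392, 1962 bases long, had 20261 and 14868 CPM in albino, against 16151 and 19311 CPM in wild type. The albino values of UniGene_127178 and UniGene_7392 enclosed both wild type values, and those of UniGene_174259 lay below. UniGene_74216, 1634 bases long, had 17665 and 13676 CPM in albino, against 17787 and 18424 CPM in wild type. None of these 4 passed the test, with edgeR adjusted p-values from 0.133 to 0.935. In all 5 top unigenes, albino replicate 2 was the lower albino library.

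Of the next 5 by mean CPM, 4 fell in albino. UniGene_186306, 6000 bases long, had 9007 and 10392 CPM in albino, against 21195 and 22444 CPM in wild type (log2 change -1.22, SE 0.20, edgeR adjusted p = 0.00644). UniGene_1278, 3471 bases long, had 11689 and 8534 CPM in albino, against 19493 and 19225 CPM in wild type (-0.96, SE 0.27, adjusted p = 0.0361). UniGene_107263, 7605 bases long, had 7652 and 8294 CPM in albino, against 14939.9 and 13559 CPM in wild type (-0.88, SE 0.20, adjusted p = 0.0176). In each of these 3 the groups were well apart, and albino replicate 2 was the higher albino library in UniGene_186306 and UniGene_107263. UniGene_96120, 738 bases long, had 7164 and 4624 CPM in albino, against 14119.9 and 13834 CPM in wild type (-1.26, SE 0.30, adjusted p = 0.0213). UniGene_20314, 700 bases long, had 9706 and 7316 CPM in albino, against 10986 and 10048 CPM in wild type, and did not pass (adjusted p = 0.356). It was the highest of all unigenes by the deposited FPKM, which is scaled to length, with 21100 and 16600 FPKM in albino and 19100 and 17600 FPKM in wild type.

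At ranks 11 to 20 the groups differed by less than 2-fold in most unigenes, and 1 stood out by far. UniGene_91084, 962 bases long, had 9214 and 7846 CPM in albino, against 9114 and 9086 CPM in wild type. UniGene_122529, 2963 bases long, had 8075 and 7399 CPM in albino, against 9503 and 9991 CPM in wild type. UniGene_87812, 3035 bases long, had 6950.2 and 6633 CPM in albino, against 9517 and 9686 CPM in wild type. None of the 3 passed, although the groups did not overlap in UniGene_122529 and UniGene_87812 (adjusted p = 0.210 and 0.0780 by edgeR). UniGene_25037, 1954 bases long, rose, with 10324 and 10617 CPM in albino, against 5712 and 5376 CPM in wild type (log2 change 0.88, SE 0.19, edgeR adjusted p = 0.0160).

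The one that stood out was UniGene_95372, 1563 bases long. It had 603 and 775 CPM in albino, against 13883 and 15299 CPM in wild type, and was 21.2-fold lower in albino (log2 change -4.46, SE 0.21, edgeR adjusted p = 0.000171). In albino it was the 180th most read unigene, against the 8th in wild type. The 2 groups lay far outside the spread of their replicates. In bulk RNA, fewer cells of a type and less RNA per cell cannot be told apart, here or for any other change.

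UniGene_11421, 747 bases long, had 9130 and 6272 CPM in albino, against 6393 and 6552 CPM in wild type, and the groups overlapped. UniGene_52782, 4904 bases long, rose, with 8374 and 8312 CPM in albino, against 4674 and 4930 CPM in wild type (log2 change 0.76, SE 0.19, edgeR adjusted p = 0.0236). UniGene_70105, 4307 bases long, had 7469 and 6243 CPM in albino, against 5618 and 5399 CPM in wild type. Its groups did not overlap, but it did not pass (adjusted p = 0.353). UniGene_67706, 2207 bases long, had 5560.2 and 4369.5 CPM in albino, against 6808 and 6809 CPM in wild type (adjusted p = 0.153). UniGene_146202, 747 bases long as well, rose, with 9365 and 6579 CPM in albino, against 3583 and 3635 CPM in wild type (log2 change 1.12, SE 0.27, edgeR adjusted p = 0.0207). The albino replicates of UniGene_67706 differed from each other, while its wild type replicates were nearly equal.

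**Figure D2:**
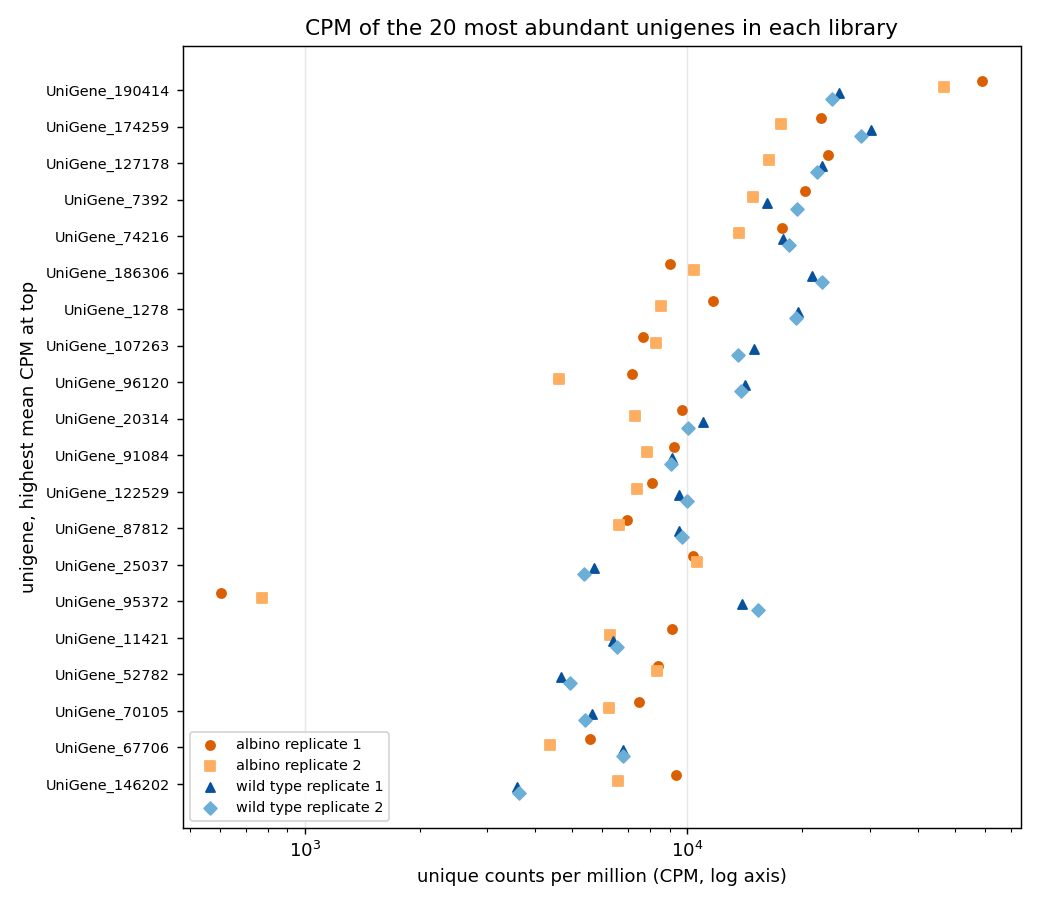
CPM (horizontal log axis) of the 20 unigenes with the highest mean CPM, highest at the top, with 1 marker per library. UniGene_190414 lies highest in both albino libraries, at 59064 and 46843 CPM, and UniGene_95372 is the only one of the 20 below 1000 CPM in any library.

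Among all 200 unigenes, 85 (42.5%) had an adjusted p under 0.05 by the quasi-likelihood test of edgeR, against 33.1% of all 37893 unigenes tested. Of these, 52 rose and 33 fell in albino, which is 26.0% and 16.5% of the 200. Over all tested unigenes 16.3% rose and 16.8% fell. At ranks 201 to 400, 84 of 200 passed (42.0%), 43 higher and 41 lower, so that the total differed little between these ranks and the 200. The members were selected on their mean over both groups, and this can bring in unigenes that are high in either group alone. Among the 85, 32 changed by at least 2-fold (16.0% of the 200), 18 higher and 14 lower, against 23.2% of all tested unigenes. The median absolute log2 change was 0.47 in the 200 and 0.58 over all tested, and the median SE was 0.17 and 0.31. In the share called and the size of change, ranks 201 to 400 were much like the 200. There 35 passed with at least 2-fold (17.5%), 13 higher and 22 lower. The median absolute log2 change at these ranks was 0.43 and the median SE 0.15.

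Within the 200, the balance of directions shifted with rank. In ranks 1 to 50, 8 unigenes rose and 12 fell, with a median log2 change of -0.11. Ranks 51 to 100 held 9 that rose and 6 that fell (median 0.18), and ranks 101 to 150 held 16 and 5 (median 0.27). Ranks 151 to 200 held 19 that rose and 10 that fell (median 0.24). The shift did not go on at ranks 201 to 400, which held 43 that rose and 41 that fell (median -0.0014). The median over the 200 was 0.16 on the log2 scale, against 0.00 over all tested unigenes. Ranks 1 to 50 held 36.6% of the unique counts in albino replicate 1 and 30.9% in albino replicate 2, against 37.0% and 36.9% in wild type. The albino level of that block thus depended on the replicate. This is a description of rank blocks with no test.

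The risen unigenes took up 15.7% and 14.4% of the reads in albino, against 7.60% and 7.38% in wild type. The fallen unigenes took up 6.26% and 5.81% in albino, against 14.0% and 14.0% in wild type. Both gaps follow from how these unigenes were called. The 115 that did not pass held 30.7% and 26.5% in albino, against 29.7% and 29.6% in wild type. In 84 of those 115 the CPM ranges of the groups did not overlap, 53 with albino above and 31 with albino below. The matching share among all tested unigenes that did not pass was not determined, so this count is description only. Over the 200, the groups did not overlap in 169 (84.5%), against 158 of 200 (79.0%) at ranks 201 to 400 and 68.5% of all tested unigenes.

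The number of calls depended on single libraries. With 1 library left out, the spread came only from the pair in the other group, so the counts also follow how close that pair was. The wild type pair was the closer one, so fits without an albino library tested the calls little. In each fit without a wild type library, a lower share of the 200 than of all tested unigenes passed. Without wild type replicate 1, 12 of the 200 passed (8.47% of all tested), and without wild type replicate 2, 12 passed (9.12% of all tested), all of them among the 85. Without albino replicate 1, 134 passed, 67 higher and 67 lower (37.9% of all tested). Without albino replicate 2, 141 passed, 103 higher and 38 lower (36.2% of all tested), and the 85 were among those called in each of these 2 fits. Of the called members named by the rule given with the processing, for which single values were followed, UniGene_143305, UniGene_95372, UniGene_149456, UniGene_146995 and UniGene_177110 kept their call with any 1 library left out. The other 8 called unigenes of the 20 most abundant lost it without wild type replicate 1 and likewise without wild type replicate 2. The Wald test of DESeq2 on the same counts called 94 of the 200, including all 85 in the same direction, and 20.6% of all tested unigenes.

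**Figure D3:**
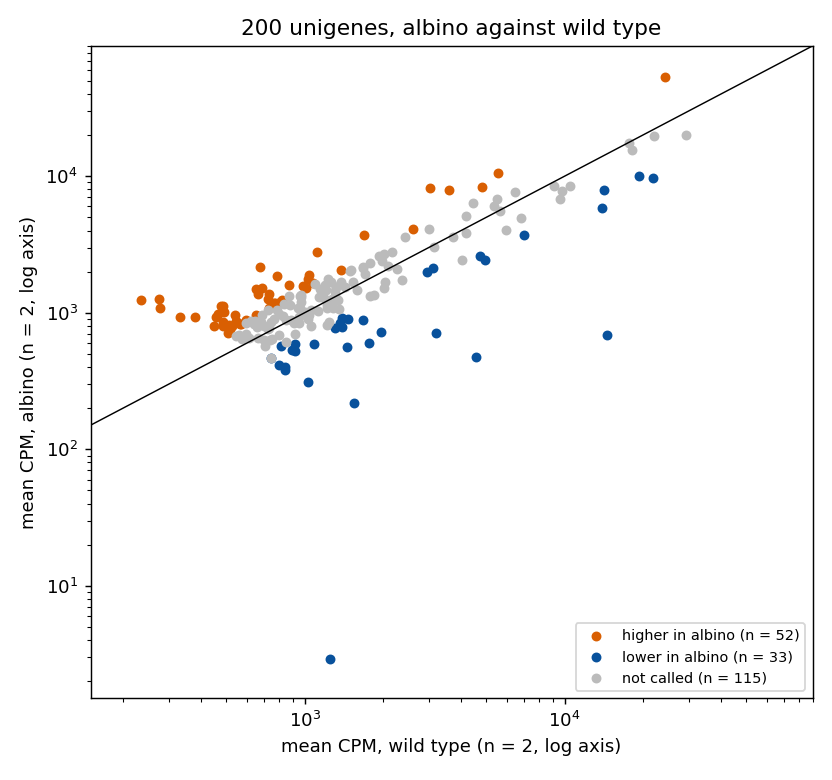
Mean CPM in albino (vertical log axis) against mean CPM in wild type (horizontal log axis) of the 200 unigenes, n = 2 libraries per group, with the line of equal level. Orange points are the 52 called higher in albino, blue points the 33 called lower and grey points the 115 not called. UniGene_143305 lies alone at the bottom, with a mean of 2.91 CPM in albino.

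The largest fall was that of UniGene_143305, 9025 bases long and 190th by mean CPM. It had 6 and 96 unique counts in albino, against 19646 and 22953 in wild type. In CPM this was 0.346 and 5.47 in albino, against 1166 and 1330.1 in wild type, a level 429-fold lower in albino (log2 change -8.84, SE 0.95, edgeR adjusted p = 0.00193). Its albino libraries differed by 3.98 on the log2 scale, the widest gap between replicates among the 200, and yet both lay far below wild type. The log2 change was -7.99 without albino replicate 1 and -11.70 without albino replicate 2. It ranked 40738th and 13362nd in the albino libraries, against 93rd and 74th in the wild type libraries, to which it owed its place among the 200. The deposited FPKM showed the same contrast, with 0.03 and 0.475 in albino, against 80.8 and 94.6 in wild type. UniGene_95372, described above, had the next largest fall. UniGene_184096, 674 bases long and named after its values were seen, had 624 and 320 CPM in albino, against 4266 and 4844 CPM in wild type, the next fall in size (-3.28, SE 0.39, adjusted p = 0.00257 by edgeR).

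The largest rises rested mainly on albino replicate 2. UniGene_157918, 2444 bases long, had 562 and 1906 CPM in albino, against 224 and 246 CPM in wild type (log2 change 2.30, SE 0.46, edgeR adjusted p = 0.0120). UniGene_70823, 1389 bases long, had 584 and 1919 CPM in albino, against 272 and 276 CPM in wild type (2.09, SE 0.44, adjusted p = 0.0146). In both, albino replicate 2 was over 3 times as high as albino replicate 1, and albino replicate 1 still lay above both wild type libraries. Without albino replicate 2 the log2 changes were 1.34 and 1.17. Without wild type replicate 1 the log2 changes were 2.22 and 2.08, and without wild type replicate 2 they were 2.30 and 2.04. Both calls were lost in both of these fits, where the spread came from the albino pair alone.

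Other large changes had closer replicates. UniGene_177110, 1032 bases long, rose, with 875 and 1288 CPM in albino, against 281 and 272 CPM in wild type (log2 change 1.91, SE 0.17, edgeR adjusted p = 0.00111). UniGene_149456, 1341 bases long, fell, with 249 and 189 CPM in albino, against 1539.6 and 1559 CPM in wild type (-2.85, SE 0.23, adjusted p = 0.000798). UniGene_146995, 2680 bases long, fell, with 373 and 248 CPM in albino, against 1027 and 1035 CPM in wild type (-1.75, SE 0.26, adjusted p = 0.00509). In each of the 3 the wild type replicates were close together and the groups were far apart. The albino replicates differed more, by 0.56 for UniGene_177110, 0.40 for UniGene_149456 and 0.59 for UniGene_146995 on the log2 scale. UniGene_117141, 1211 bases long and named after its values were seen, had the largest rise among the 100 most abundant, with 2182 and 2149.6 CPM in albino, against 637 and 706 CPM in wild type (1.65, SE 0.17, adjusted p = 0.00159).

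Replicates of the 200 were close in both groups in plain CPM. The median absolute difference between replicates was 0.12 on the log2 scale in albino and 0.10 in wild type, against 0.34 and 0.24 over all tested unigenes. At ranks 201 to 400 it was likewise 0.12 and 0.10, so this closeness was not particular to the 200. With the TMM scaling used in the test, the medians of the 200 were 0.24 in albino and 0.13 in wild type. The difference in plain CPM was under 0.25 for 143 of the 200 in albino and 183 in wild type. Differences above 0.5 were found for 24 in albino and 1 in wild type, and differences above 1 for 5 and 0. The albino difference was the wider in 117 of the 200 (58.5%), against 60.5% of all tested unigenes. Counting error was small beside these values, with a median standard error of 0.0145 and 0.0152 on the log2 scale in albino and wild type. The difference exceeded 2 such standard errors in 161 unigenes in albino and 169 in wild type.

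Albino differences above 0.5 in size were found for 8 unigenes in ranks 1 to 50 and 1 in ranks 51 to 100. Ranks 101 to 150 held 6 of them and ranks 151 to 200 held 9. In the 10 most abundant, the median difference of albino replicate 2 minus replicate 1 was -0.39, and 8 of the 10 were lower in replicate 2. In ranks 1 to 50 it was -0.13, with 37 of 50 lower, and in ranks 51 to 100 it was 0.01. In wild type, the median of replicate 2 minus replicate 1 was -0.04 in the 10 most abundant and -0.02 in ranks 1 to 50. Over all tested unigenes the median of albino replicate 2 minus replicate 1 was 0.21, so that the bulk of unigenes was higher in replicate 2 in plain CPM. Relative to that shift, 177 of the 200 lay lower in albino replicate 2, and 45 of the first 50. The TMM factors used in the test, 0.942 and 1.10 for the albino libraries and 0.968 and 1.001 for wild type, bring that median over all tested to -0.01. On that scale the median difference in the 200 was -0.23 between the albino replicates and -0.09 between the wild type replicates, and 179 of the 200 were lower in albino replicate 2.

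The 5 unigenes with albino differences above 1 lay at ranks 148 to 190. Besides UniGene_143305, UniGene_157918 and UniGene_70823 they were UniGene_100485 and UniGene_129595, the last named after its values were seen. UniGene_100485, 1761 bases long, had 303 and 981 CPM in albino, against 903 and 593 CPM in wild type, where it also had the widest replicate difference, -0.61 on the log2 scale. UniGene_129595, 1928 bases long, had 905 and 348 CPM in albino, against 762 and 715 CPM in wild type. Neither passed, with edgeR adjusted p = 0.623 and 0.723, and in both the albino values enclosed the wild type values. The next widest wild type differences were those of UniGene_140738 and UniGene_14362. UniGene_140738, 9367 bases long, had 1259 and 1759 CPM in albino, against 575 and 792 CPM in wild type, and rose (log2 change 1.09, SE 0.20, adjusted p = 0.00864). UniGene_14362, 8683 bases long, had 848 and 949 CPM in albino, against 877 and 1177 CPM in wild type, and did not pass (adjusted p = 0.337).

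**Figure D4:**
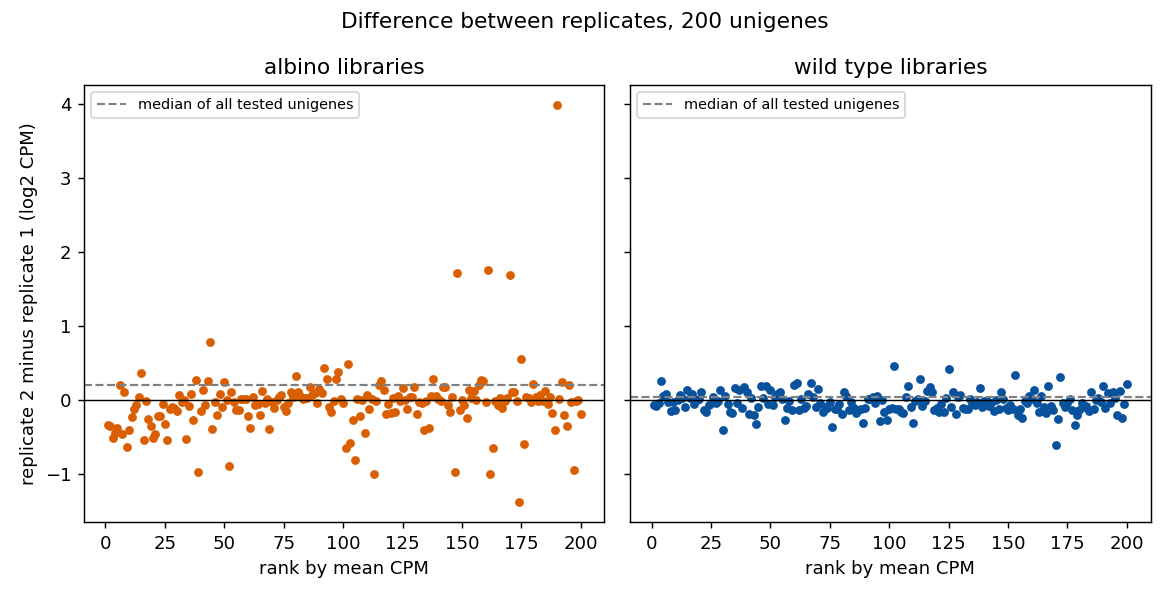
Difference of replicate 2 minus replicate 1 in log2 CPM (vertical axis) against rank by mean CPM (horizontal axis) for the 200 unigenes, with albino on the left and wild type on the right and the median of all tested unigenes dashed, at 0.21 in albino and 0.05 in wild type. Differences above 1 in size occur for 5 unigenes in albino and 0 in wild type.

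A set of unigenes was steady by unique counts. In 40 of the 200, the fitted log2 change between the groups, on the TMM scale, was under 0.25 in size. Both replicate differences in plain CPM were under 0.25 as well. On the TMM scale the median albino replicate difference of the 200 was 0.24, against 0.12 in plain CPM, so the set depends on the scale. No matching share of all tested unigenes is given. These limits were set after the data were seen and carry no test. Their median length was 1500 bases. The 40 began at rank 11 with UniGene_91084, which was not steady by the deposited FPKM, with 9790 and 8320 in albino, against 4730 and 4750 in wild type.

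Ranks moved more between the groups than between replicates. The median absolute shift in rank of the 200 was 27 places between the group means, and 6 places between the replicates in albino as well as in wild type. It was 8 places in ranks 1 to 50, 23.5 in ranks 51 to 100, 43 in ranks 101 to 150 and 61.5 in ranks 151 to 200. The median absolute log2 change between the groups showed no such steady increase, at 0.50, 0.39, 0.45 and 0.53 in these blocks. In albino, 116 of the 200 stood higher in rank than in wild type, 81 lower and 3 at the same place. A shift of at most 10 places was seen for 51, and a shift of more than 100 places for 28.

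The 2 groups shared most of their leading unigenes. Their own lists of the 200 highest had 158 unigenes in common, 79% of each list, while replicates shared 185 in albino and 192 in wild type. All 158 were among the 200 described here, which further held 25 from the albino list alone and 17 from the wild type list alone. In all 4 libraries, 147 of the 200 were among the 200 highest. Of the 10 highest in albino and in wild type, 7 were the same, and of the 20 highest, 14.

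The largest gains and losses of rank were those of unigenes already described. UniGene_157918 stood at rank 94 in albino, against 449 in wild type, UniGene_70823 at rank 92, against 387, and UniGene_177110 at rank 107, against 383. UniGene_143305 stood at rank 17487 in albino, against 84 in wild type. UniGene_149456 stood at rank 505 in albino, against 61 in wild type, and UniGene_146995 at rank 352, against 104.

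The border at rank 200 cut through unigenes of almost equal mean level. Just inside were UniGene_199853 with 416 and 415 CPM in albino and 866 and 729 CPM in wild type, UniGene_169560 with 637 and 636 CPM in albino and 583 and 562 CPM in wild type, and UniGene_43283 with 494 and 433 CPM in albino and 687 and 799 CPM in wild type. Just outside were UniGene_94664 with 739 and 765 CPM in albino and 480.1 and 429 CPM in wild type, UniGene_169955 with 660.4 and 657 CPM in albino and 544 and 508 CPM in wild type, and UniGene_180423 with 249 and 261 CPM in albino and 941 and 909 CPM in wild type. In UniGene_199853, UniGene_43283 and UniGene_180423 both albino libraries lay below both wild type libraries, and in the other 3 they lay above.

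The median length of the 200 was above that of all tested unigenes. Their lengths ran from 325 to 11619 bases with a median of 1623, against 1203 over all tested unigenes. At ranks 201 to 400 the median was 2183. Only 26.0% of the 200 were under 1000 bases long, against 40.9% of all tested, and 10.5% were at least 5000 bases long, against 3.50%. Of the 21 that reached 5000 bases, 3 rose and 8 fell in albino, and of the 52 under 1000 bases, 15 rose and 5 fell. Over all tested unigenes, 18.7% of those that reached 5000 bases rose and 14.8% fell, and 14.7% of those under 1000 bases rose and 19.97% fell. These length limits were set after the data were seen, and the counts are given with no test. Scaled to length, the order changed: 151 of the 200 were also among the 200 highest by counts per kilobase, and 133 among the 200 highest by the deposited FPKM. Of the 20 highest by CPM, 11 were among the 20 highest by FPKM, and 3 of the 200 ranked beyond 1000 by FPKM. These 3 were UniGene_143305, UniGene_52474 and UniGene_43283, of which UniGene_52474 was named after its values were seen, and they are 9025, 9967 and 6866 bases long.

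The deposited FPKM was not a plain rescaling of the unique counts by length, but for most of the 200 it gave the same contrast between the groups. In 179 of the 200, the log2 ratio of albino over wild type from mean FPKM lay within 0.25 of that from mean CPM. The direction was opposite in 14, of which 0 were among the 85 called by counts. Limma on log2(FPKM + 1) called 50 of the 200, against 23.7% of the 54129 unigenes tested that way, and 45 of the 50 were among the 85, in the same direction.

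In 3 of the 20 most abundant, FPKM and unique counts parted by more than 1 on the log2 scale. UniGene_174259 was lower in albino by CPM in both libraries, but had 16400 and 13300 FPKM in albino, against 4880 and 5710 FPKM in wild type, a log2 difference of 1.48 by limma (adjusted p = 0.0190). UniGene_91084 had nearly equal CPM in the groups, but 9790 and 8320 FPKM in albino, against 4730 and 4750 FPKM in wild type (0.93 by limma, adjusted p = 0.0304). UniGene_95372 had 575 and 746 FPKM in albino, against 5350 and 4070 FPKM in wild type, a smaller contrast than by counts (-2.83 by limma, adjusted p = 0.0122). In all 3, FPKM per unique count was higher in the albino libraries than in the wild type libraries. Relative to unigenes of like length in the same library, it deviated on the log2 scale by 0.17 and 0.22 in albino, against -1.91 and -1.61 in wild type for UniGene_174259. For UniGene_91084 the deviations were -0.13 and -0.16 in albino, against -1.10 and -1.08 in wild type. For UniGene_95372 they were 0.51 and 0.55 in albino, against -0.73 and -1.25 in wild type. The labels and file headers do not say how the FPKM was computed, so the levels of these 3 unigenes, and their contrast between the groups, are uncertain.

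UniGene_119152, 1925 bases long and named after its values were seen, deviated upward in every library, by like amounts in both groups. Its FPKM per unique count lay 1.91 and 1.94 above that of unigenes of like length in albino and 2.02 and 2.01 above in wild type on the log2 scale. It had 4080 and 3392 CPM in albino, against 1617 and 1778 CPM in wild type, and rose (log2 change 1.11, SE 0.21, edgeR adjusted p = 0.00970). Its FPKM gave the same direction, with 7980 and 6770 in albino, against 3300 and 3660 in wild type. No other unigene of the 200 deviated by more than 1 upward in any library.

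**Figure D5:**
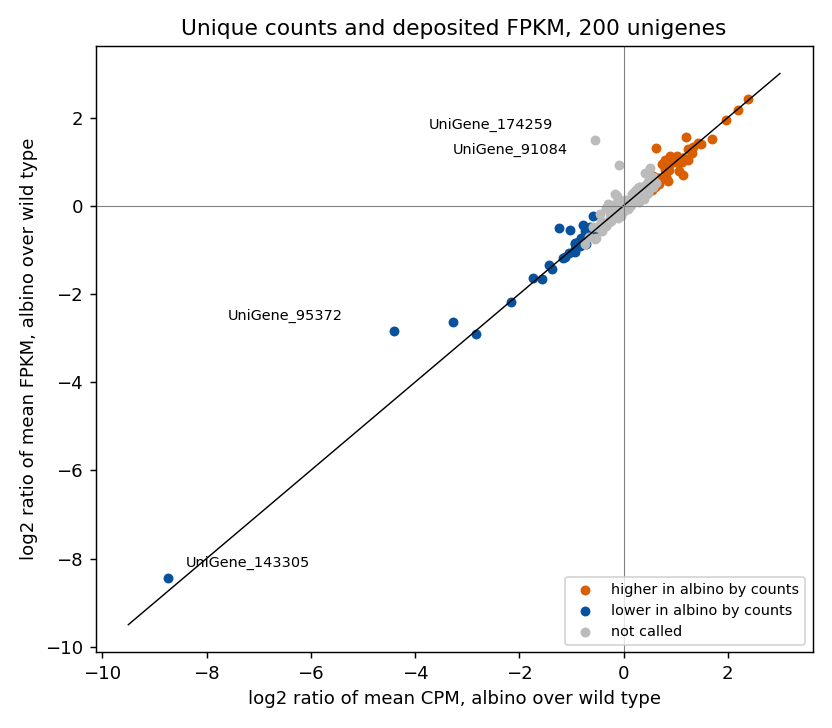
Log2 ratio of albino over wild type from mean FPKM (vertical axis) against that from mean CPM (horizontal axis) for the 200 unigenes, with the line of equal ratios. Points are coloured by the call on unique counts, and UniGene_174259, UniGene_91084 and UniGene_95372 lie more than 1 above the line.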

How the data were processed

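The members, their limits and the tests were chosen with earlier results of these data known. Each library has its own deposited table of unigenes with length, unique count and FPKM, per the file headers. The unique counts deposited by the authors are whole reads and not normalized. The deposited FPKM was scaled by the authors to length and library, with a formula that neither labels nor headers state. Trimmomatic is named in the submitters' processing notes, and no source used here gives the assembler, aligner or counter.

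CPM used all unique counts of a library as its total. edgeR 4.0.16 (R 4.3.3) was fitted to all 4 libraries across all unigenes with group as the only factor, TMM scaling and its expression filter (minimum count 10, minimum total 15), which kept 37893 unigenes, all 200 members among them. Its quasi-likelihood test was adjusted over all of these by Benjamini-Hochberg, and was tried on simulated counts with known changes. These had the same assumed spread in every library, so they do not show how the test handles the wider albino differences here. Fold changes are albino over wild type. The SE given for edgeR was not a direct output of the fit. It is the size of the log2 change, before shrinkage by edgeR, divided by the square root of the F value of the test. FPKM per unique count was compared within 30 length bins for unigenes with at least 50 counts in a library. Limma 3.58.1 and DESeq2 1.42.0 served as alternatives, beside left-out libraries, other filters and scalings and a replicate block.

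Named by rule are the 20 highest members, the 2 called rises and 2 called falls of largest size, the 3 widest replicate differences per group, the 3 largest gains and 3 largest losses of rank, and 3 unigenes on either side of rank 200. UniGene_184096, UniGene_117141, UniGene_129595, UniGene_119152 and UniGene_52474 were named after their values were seen, and were not followed singly through the alternatives. A count of 0 allows up to 3 counts, or 0.171 to 0.178 CPM. The labels number the libraries 1 and 2 in each group and name no pairing. Same-numbered libraries did not deviate alike (r = -0.16 over all tested unigenes, -0.05 over the 200). With 2 libraries per group, a negative r means that opposite-numbered libraries deviated weakly alike. The crossed block named below pairs albino replicate 1 with wild type replicate 2, and albino replicate 2 with wild type replicate 1.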

Additional observations from a re-analysis of the deposited data

How the results depend on the processing

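Of the 200 unigenes, 85 were called, 52 higher and 33 lower, against 33.1% of all tested. In this paragraph the share of all tested called under the same setting follows each count. With 1 library left out there were between 12 and 141 calls, between 2 and 103 of them higher and between 9 and 67 lower (8.47% to 37.9%), and the lone library of a group was taken to vary as much as the complete group. An adjusted p under 0.01 gave 36 (18 and 18, against 13.7%), a minimum of 2-fold 32 (18 and 14, against 23.2%) and limma on log2(FPKM + 1) 50 (31 and 19, against 23.7%). With a pseudocount of 0.1, limma called 27 of the 200 (16 and 11), a lower share than the 16.9% of all tested. The replicate block gave 90 calls (54 and 36, against 23.8%), sharing 82 with the 85. Of the unigenes named by rule it added UniGene_174259 (adjusted p = 0.0479 by edgeR) and UniGene_87812 (adjusted p = 0.0441) and lost none. Chosen after seeing the data, the crossed block gave 65 calls of 200, 34 of them higher, a lower share than the 35.4% of all tested, and scaling by library totals only gave 125, 80 of them higher (against 29.97%). DESeq2 size factors, the Wald test of DESeq2, no filter, the stricter filter and members by FPKM or by counts per kilobase gave 77 to 114 calls (against 18.6% to 33.1%). The share difference of -1.42 points ran from -4.37 to 1.53 with 1 library left out, and was 0.65 by FPKM. The albino replicate difference of 0.12 became 0.24 in TMM-scaled CPM.

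None of the unigenes named by rule and called by edgeR changed direction under any of these alternatives, of which the stricter filter left out UniGene_143305. Calls were lost by limma for 8 of the unigenes named by rule with a pseudocount of 1 and for 13 with 0.1. Among the 8 were UniGene_96120 (log2 change -0.52, adjusted p = 0.215 by limma), UniGene_146202, UniGene_1278, UniGene_157918 and UniGene_70823. The 13 also held UniGene_190414 (adjusted p = 0.0659 by limma). Of the unigenes named by rule and not called by edgeR, limma on FPKM, with either pseudocount, turned the log2 change to 1.48 for UniGene_174259, 0.24 for UniGene_127178, 0.0164 for UniGene_7392, 0.0296 for UniGene_20314, 0.93 for UniGene_91084 and 0.0366 or 0.0371 for UniGene_14362. With 1 library left out, the log2 change ran from -0.60 to 0.16 for UniGene_127178, from -0.41 to 0.28 for UniGene_7392, from -0.56 to 0.0486 for UniGene_74216 and from -0.37 to 0.10 for UniGene_91084. It ran from -0.20 to 0.58 for UniGene_11421, from -1.22 to 0.23 for UniGene_100485, and reached -0.00656 for UniGene_169560. The cause was not tested. With 2 libraries per group, each unigene has only 2 residual degrees of freedom. The quasi-likelihood test of edgeR therefore also draws on the spread of the other tested unigenes. Depth limited no member other than UniGene_143305, whose 6 counts lie near the limit that a count of 0 allows.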
